A study of Mus musculus with 24 samples.

Results

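The genes described here are 5 members of the Ly6 family, *Ly6a*, *Ly6c1*, *Ly6c2*, *Ly6d* and *Ly6e*, and *Thy1*. They are 6 of the 55487 genes listed in both deposited tables of values, found by their symbols. They were chosen by name after the group means of these same libraries had been seen, that is, selected on those means, so their levels and differences are a description. Where the text says how many of them met the thresholds set for all genes, it gives the share of all genes that did, and it reads nothing from the count.

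The cells were Cas9-LP, lymphoid progenitor (LP) lines made from fetal liver of mice that lack *Ebf1* and carry Cas9 at the Rosa26 locus. The lines were transduced with 3 pooled sgRNA vectors per gene against *Cbfb* (sgCbfb), *Ctcf* (sgCTCF) or *Med12* (sgMed12), or with luciferase sgRNA (sgControl). In experiment 1, sgControl and sgCbfb cells were grown on OP9 stroma (LP) or on OP9 stroma displaying the Notch ligand DLL4 (OP9-DLL4, Phase 1). In experiment 2 all 4 sgRNA groups were grown on OP9 as LP. SCF, Flt3L and IL-7 were present throughout, and sgRNA-carrying hNGFR+CD45+ cells were sorted 5 days after transduction. Each of the 8 groups has 3 libraries of 3′ tags (QuantSeq), which the study's methods call independent while the labels name no separate cultures, so p-values measure the spread between these samples.

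Values are CPM, the reads on a gene scaled to 1000000 reads on all genes, and are compared between groups within a gene and not between genes. Experiment 1 has 1363263 to 1743319 reads on genes in a library, so 3 reads are 1.72 to 2.20 CPM. Experiment 2 has 3354483 to 4326782, so 3 reads are 0.693 to 0.894 CPM. Differences are on log2(CPM + 1), with the standard error (SE) of a limma fit of the 4 groups of an experiment, and no test crosses the experiments. Calls needed an adjusted p under 0.05, a log2 ratio of group means beyond 1 in either direction and a mean over 10 CPM in 1 of the groups. Less RNA per cell and fewer cells of a type cannot be told apart in such bulk libraries.

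Ly6 proteins are small cell surface proteins with a three-finger fold, most of them held in the membrane by a glycosylphosphatidylinositol (GPI) anchor, and their genes lie in a cluster. *Ly6a* encodes Sca-1, a marker of mouse stem and progenitor cells, *Ly6c1* and *Ly6c2* encode Ly-6C of monocytes and some lymphocytes, and *Ly6d* marks lymphoid progenitors biased towards B cells. *Thy1* is a GPI-anchored protein of the immunoglobulin superfamily that is used as a marker of T-lineage cells. *Cbfb* encodes the partner that RUNX factors need for stable DNA binding, *Ctcf* a DNA-binding protein of chromatin architecture and *Med12* a subunit of the Mediator complex.

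The genes that the sgRNAs target were read first. *Cbfb* was 92.7, 91.0 and 75.8 CPM in LP sgControl and 45.8, 39.0 and 35.7 CPM in LP sgCbfb of experiment 1, a difference of -1.09 (SE 0.22, limma adjusted p 0.00548). In Phase 1 it was 73.4, 81.3 and 44.7 CPM against 44.1, 63.5 and 54.2 CPM, which overlapped (-0.27, adjusted p 0.591). In experiment 2 it was 110.0, 109.0 and 123.9 CPM against 48.3, 41.6 and 55.4 CPM (-1.23, SE 0.16, adjusted p 4.34e-06). *Cbfb* tags were thus lower in LP cells of both experiments. *Ctcf* was 403.8, 355.9 and 413.2 CPM in sgControl and 330.3, 272.3 and 314.3 CPM in sgCTCF, with no overlap (-0.36, adjusted p 0.0210). *Med12* was 6.59, 4.43 and 4.38 CPM in sgControl and 9.61, 3.20 and 8.23 CPM in sgMed12, which overlapped (0.30, adjusted p 0.663). A 3′ tag that lies outside the edited part of a gene does not measure editing, so these levels do not check the loss of the proteins.

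The labels were checked against marker genes. Between LP and Phase 1 sgControl, the Notch target *Hes1* went from 1.63 to 85.9 CPM, the T-lineage regulator *Tcf7* from 4.52 to 147.5 CPM and *Il2ra*, which encodes CD25, from 2.61 to 371.3 CPM. The progenitor receptor gene *Flt3* was at 272.7 CPM in LP sgControl of experiment 1 and at 276.1 CPM in that of experiment 2, and *Ptprc*, which encodes CD45, was at 619.9 and 556.4 CPM. *Ebf1* tags were counted at 333.7 and 276.0 CPM in LP sgControl, and such tags can come from outside a deleted part.

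*Ly6a* (ENSMUSG00000075602) was counted in every library and was highest in *Cbfb*-targeted LP cells of experiment 2. In experiment 1 it was 30.1, 37.2 and 28.9 CPM in LP sgControl and 83.2, 97.5 and 85.6 CPM in LP sgCbfb. In Phase 1 it was 67.8, 63.2 and 92.4 CPM in sgControl and 84.3, 89.2 and 94.9 CPM in sgCbfb. LP sgControl was thus the lowest of the 4 groups, with no overlap with Phase 1 sgControl, and the other 3 groups overlapped their neighbours in the order Phase 1 sgControl, LP sgCbfb, Phase 1 sgCbfb. Experiment 2 gave 8.70, 31.0 and 8.04 CPM in sgControl, 299.9, 282.9 and 106.6 CPM in sgCbfb, 32.2, 38.1 and 33.3 CPM in sgCTCF and 14.1, 25.6 and 21.005 CPM in sgMed12. The order there was sgControl, sgMed12, sgCTCF, sgCbfb, and only the first pair overlapped. Replicate 2 of sgControl stood apart from both others of its group, and replicate 3 of sgCbfb was the lowest of its own.

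*Ly6c2* (ENSMUSG00000022584) was high wherever *Cbfb* was targeted. In experiment 1 it was 18.3, 15.5 and 12.8 CPM in LP sgControl, 88.9, 93.5 and 82.1 CPM in LP sgCbfb, 8.47, 9.68 and 8.07 CPM in Phase 1 sgControl and 101.1, 106.2 and 87.8 CPM in Phase 1 sgCbfb. The order was Phase 1 sgControl, LP sgControl, LP sgCbfb, Phase 1 sgCbfb, and only the last pair overlapped. Experiment 2 gave 8.97, 14.2 and 10.47 CPM in sgControl, 293.6, 289.6 and 228.0 CPM in sgCbfb, 68.4, 77.4 and 94.3 CPM in sgCTCF and 8.76, 19.8 and 24.4 CPM in sgMed12. Here sgControl and sgMed12 overlapped, sgCTCF lay above both and sgCbfb above all others.

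*Ly6c1* (ENSMUSG00000079018) was near the limit of counting. It had at most 3 reads in 17 of the 24 libraries and 0 reads in 5, and no group mean was over 10 CPM. Its highest levels were in sgCbfb of experiment 2, at 8.05, 10.7 and 7.56 CPM or 27, 40 and 30 reads. In sgCTCF it was 5.64, 0.835 and 0.693 CPM, and in sgControl 0.263, 0.295 and 0 CPM. In experiment 1 the group means ran from 0.206 CPM in LP sgControl to 2.82 CPM in Phase 1 sgCbfb, and only LP sgControl lay apart from its neighbour in the order.

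*Ly6d* (ENSMUSG00000034634) was almost lost from LP cells with sgCbfb in both experiments. In experiment 1 it was 172.3, 128.2 and 131.0 CPM in LP sgControl and 2.12, 0.573 and 1.43 CPM in LP sgCbfb, the latter from 3, 1 and 2 reads. In Phase 1 it was 436.2, 369.7 and 217.1 CPM in sgControl and 26.6, 39.6 and 35.4 CPM in sgCbfb. The 4 groups did not overlap, in the order LP sgCbfb, Phase 1 sgCbfb, LP sgControl, Phase 1 sgControl. LP cells of experiment 2 had 115.0, 137.0 and 77.7 CPM in sgControl, 0.298, 2.95 and 1.01 CPM in sgCbfb, 70.3, 73.2 and 93.6 CPM in sgCTCF and 46.3, 61.0 and 49.7 CPM in sgMed12. Of neighbours in the order sgCbfb, sgMed12, sgCTCF, sgControl, only sgCTCF and sgControl overlapped.

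*Thy1* (ENSMUSG00000032011) was highest in Phase 1 control cells. In experiment 1 it was 169.4, 224.1 and 170.2 CPM in LP sgControl, 127.0, 158.9 and 162.7 CPM in LP sgCbfb, 316.2, 325.8 and 384.4 CPM in Phase 1 sgControl and 126.4, 147.7 and 149.7 CPM in Phase 1 sgCbfb. Both sgCbfb groups overlapped each other and lay under LP sgControl, which lay under Phase 1 sgControl. LP cells of experiment 2 had 186.2, 149.7 and 202.8 CPM in sgControl, 64.1, 73.2 and 80.4 CPM in sgCbfb, 190.8, 149.3 and 200.1 CPM in sgCTCF and 272.1, 242.9 and 292.4 CPM in sgMed12. Libraries with sgCbfb were lowest, sgControl and sgCTCF overlapped, and sgMed12 was highest.

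*Ly6e* (ENSMUSG00000022587) varied least of the 6 genes. Over the 24 libraries it ran from 822.6 to 1471 CPM, with a median of 990.6 CPM. Its mean was 1314 ± 136.6 CPM (SD, n = 3) in Phase 1 sgControl, above LP sgControl (972.1 ± 31.8 CPM), LP sgCbfb (1000.9 ± 42.9 CPM) and Phase 1 sgCbfb (1024.9 ± 24.4 CPM), which overlapped their neighbours. In experiment 2 its means were 964.3 ± 59.9 CPM in sgControl, 1059.8 ± 113.2 CPM in sgCbfb, 871.1 ± 43.1 CPM in sgCTCF and 873.2 ± 21.1 CPM in sgMed12. In the order sgCTCF, sgMed12, sgControl, sgCbfb, only sgMed12 and sgControl did not overlap as neighbours, and sgCTCF overlapped sgControl.

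**Figure D1:**
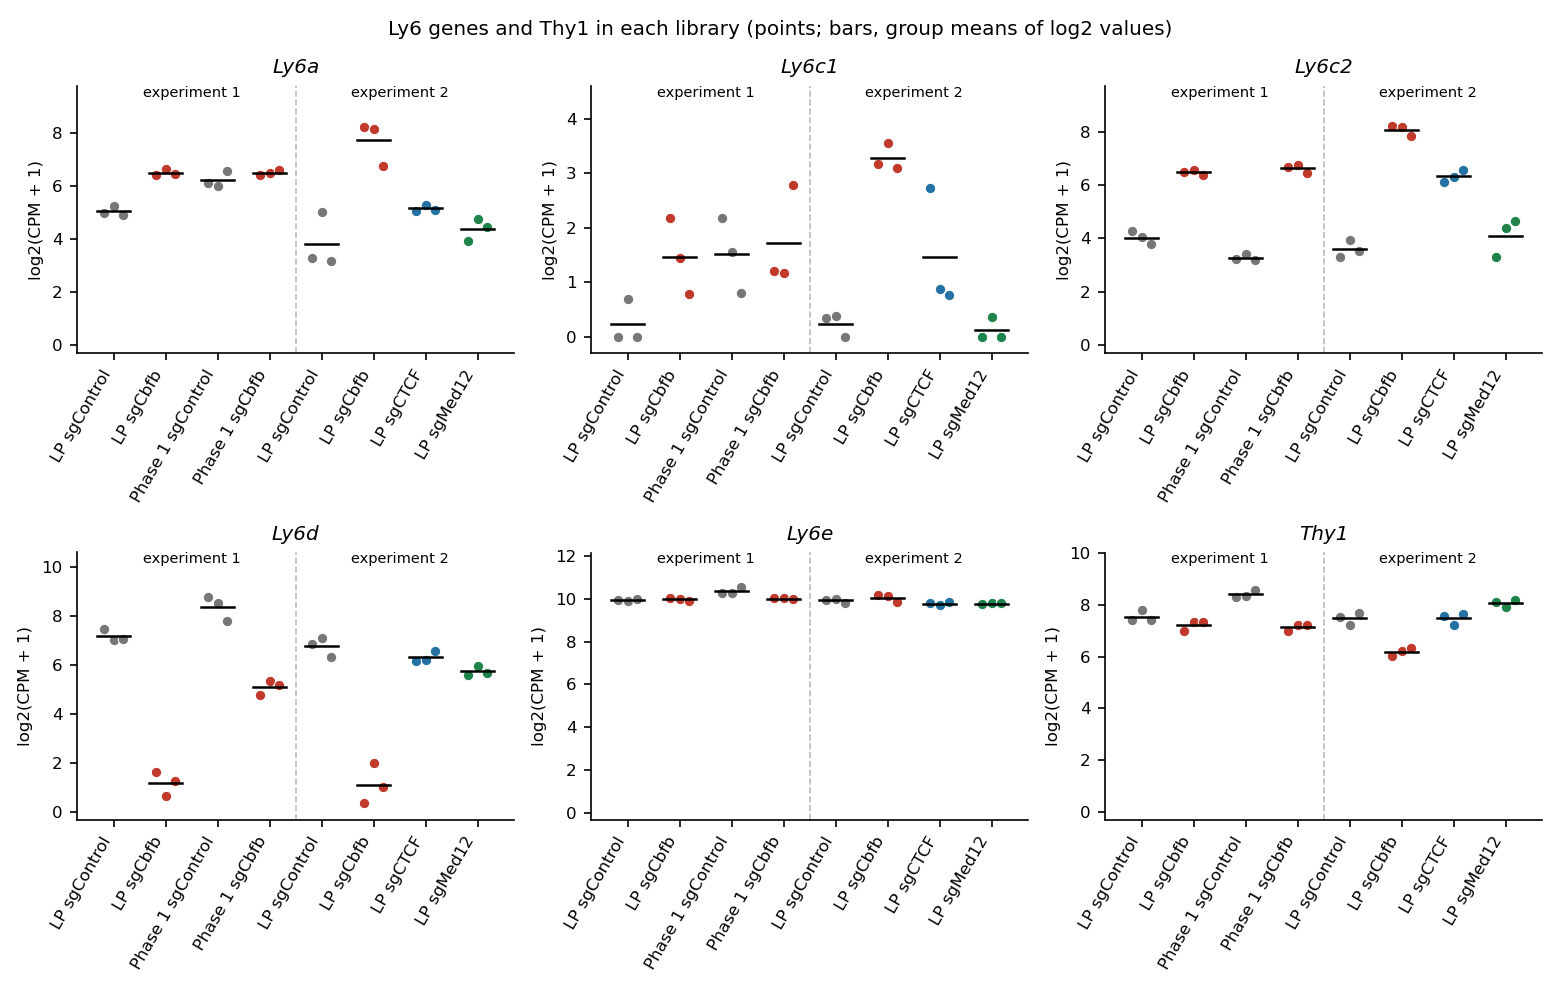
Level of each of the 6 genes, as log2(CPM + 1), in each library (points) of the 8 groups, with the mean of the log2 values of each group (bars) and experiment 1 left of the dashed line. *Ly6a* and *Ly6c2* are highest in sgCbfb of experiment 2, *Ly6d* is lowest in both LP sgCbfb groups and *Ly6e* varies least.

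Targeting *Cbfb* in LP cells of experiment 1 asks what these genes do without the RUNX partner before Notch stimulation. *Ly6c2* was 5.67-fold higher than in sgControl (2.44, SE 0.23) and *Ly6a* 2.77-fold higher (1.45, SE 0.19). *Ly6d* had 703 reads in LP sgControl against 6 in LP sgCbfb, 109.8-fold fewer after scaling to depth, with a 95% exact binomial interval of 50.2 to 300.4 that, like every such interval here, covers counting error only (fitted difference -5.97, SE 0.28). *Thy1* differed by -0.32 (SE 0.15) and *Ly6e* by 0.04 (SE 0.10), both small. *Ly6c1* had 9 reads against 1, a ratio of 9.60 (interval 1.33 to 420.8). Of the 6 genes 1 met the thresholds as lower, where 0.597% of the 13239 genes tested did, and 2 as higher, where 1.10% did. The median over all genes tested was 0.00.

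Experiment 2 repeated this comparison with other sgControl libraries. *Ly6c2* was 24.1-fold higher in sgCbfb (4.49, SE 0.24) and *Ly6a* 14.4-fold higher (3.89, SE 0.35; 4.48 without sgControl replicate 2). *Ly6d* had 1219 reads in sgControl against 16 in sgCbfb, a ratio of 74.6 (interval 45.8 to 131.0; fitted difference -5.63, SE 0.27). *Thy1* was 2.48-fold lower (-1.29, SE 0.13) and *Ly6e* differed by 0.13 (SE 0.10). *Ly6c1* had 97 reads against 2, a ratio of 49.5 (interval 13.3 to 414.7). The same 3 genes that met the thresholds in experiment 1 did so here with the same signs, and *Thy1* did as well. That makes 2 genes lower, beside 1.65% of the 13177 genes tested, and 2 higher, beside 2.67%, with a median of -0.01 over all genes.

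In Phase 1 the same sgRNAs were read after Notch stimulation. *Ly6c2* was 11.3-fold higher in sgCbfb than in sgControl (3.35, SE 0.23) while *Ly6a* differed little (0.28, SE 0.19). *Ly6d* was 10.1-fold lower (-3.25, SE 0.28) and *Thy1* 2.42-fold lower (-1.27, SE 0.15). *Ly6e* differed by -0.35 (SE 0.10) and *Ly6c1* by 0.21 (SE 0.60). The 2 lower genes stand beside 1.56% of all genes tested and the 1 higher gene beside 1.96%, and the median over all genes was 0.06.

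Notch stimulation itself was read between LP and Phase 1 cells with the same sgRNA. In sgControl cells *Ly6d* was 2.37-fold higher in Phase 1 (1.19), *Ly6a* 2.32-fold higher (1.18), *Thy1* 1.82-fold higher (0.87) and *Ly6e* 1.35-fold higher (0.43). *Ly6c2* was 1.78-fold lower (-0.75), which did not meet the thresholds. *Ly6c1* had 9 reads against 1, a ratio of 10.1 (interval 1.40 to 443.3). The thresholds were met by 2 genes as higher, *Ly6a* and *Ly6d*, beside 1.65% of all genes, while 1.74% of all genes met them as lower. *Ly6d* did not meet them without LP sgControl replicate 2 (1.12) or 3 (1.13) or without Phase 1 sgControl replicate 1 (0.99), nor with a pseudocount of 0.1, and *Thy1* did so without LP sgControl replicate 2, with its value moving from 0.87 to just over 1. The median over all genes was -0.07.

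In sgCbfb cells the step from LP to Phase 1 moved *Ly6d* alone by more than 1 unit. It had 164 reads in Phase 1 against 6 in LP, a ratio of 25.8 (interval 11.6 to 71.4; fitted difference 3.91). The others differed by 0.01 (*Ly6a*), 0.25 (*Ly6c1*), 0.15 (*Ly6c2*), 0.03 (*Ly6e*) and -0.08 (*Thy1*). The 1 gene that met the thresholds as higher stands beside 0.740% of all genes, and 0.453% met them as lower. Both stage comparisons use the same libraries as the *Cbfb* comparisons of experiment 1, so their values are not independent of them.

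The interaction of stage and sgRNA, the sgCbfb difference in Phase 1 minus that in LP, was 2.72 (SE 0.40) for *Ly6d*, whose difference was larger in LP. With LP sgCbfb at so few reads its size depends on the scale, at 1.43 with a pseudocount of 5, 3.47 with 0.1 and 3.33 by edgeR. It was -1.17 (SE 0.27) for *Ly6a* and -0.95 (SE 0.21) for *Thy1*. Within experiment 1 these differed with sgCbfb mainly in 1 stage each, *Ly6a* in LP and *Thy1* in Phase 1. In LP of experiment 2, however, *Thy1* was also lower with sgCbfb (-1.29, SE 0.13). The interaction was 0.91 (SE 0.33) for *Ly6c2*, -0.40 (SE 0.14) for *Ly6e* and -1.02 (SE 0.85) for *Ly6c1*. The first 3 genes met the threshold for an interaction, an adjusted p under 0.05 with a group mean over 10 CPM, beside 1.19% of the genes tested (median 0.06). *Ly6a* did not meet it in 7 fits without 1 library, those of LP sgCbfb replicates 2 and 3, LP sgControl replicates 1 and 3 and each Phase 1 sgCbfb replicate (-1.21 to -1.10). *Thy1* did not meet it in 5, those of LP sgCbfb replicates 2 and 3, LP sgControl replicates 1 and 3 and Phase 1 sgCbfb replicate 1 (-0.90 to -0.87).

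**Figure D2:**
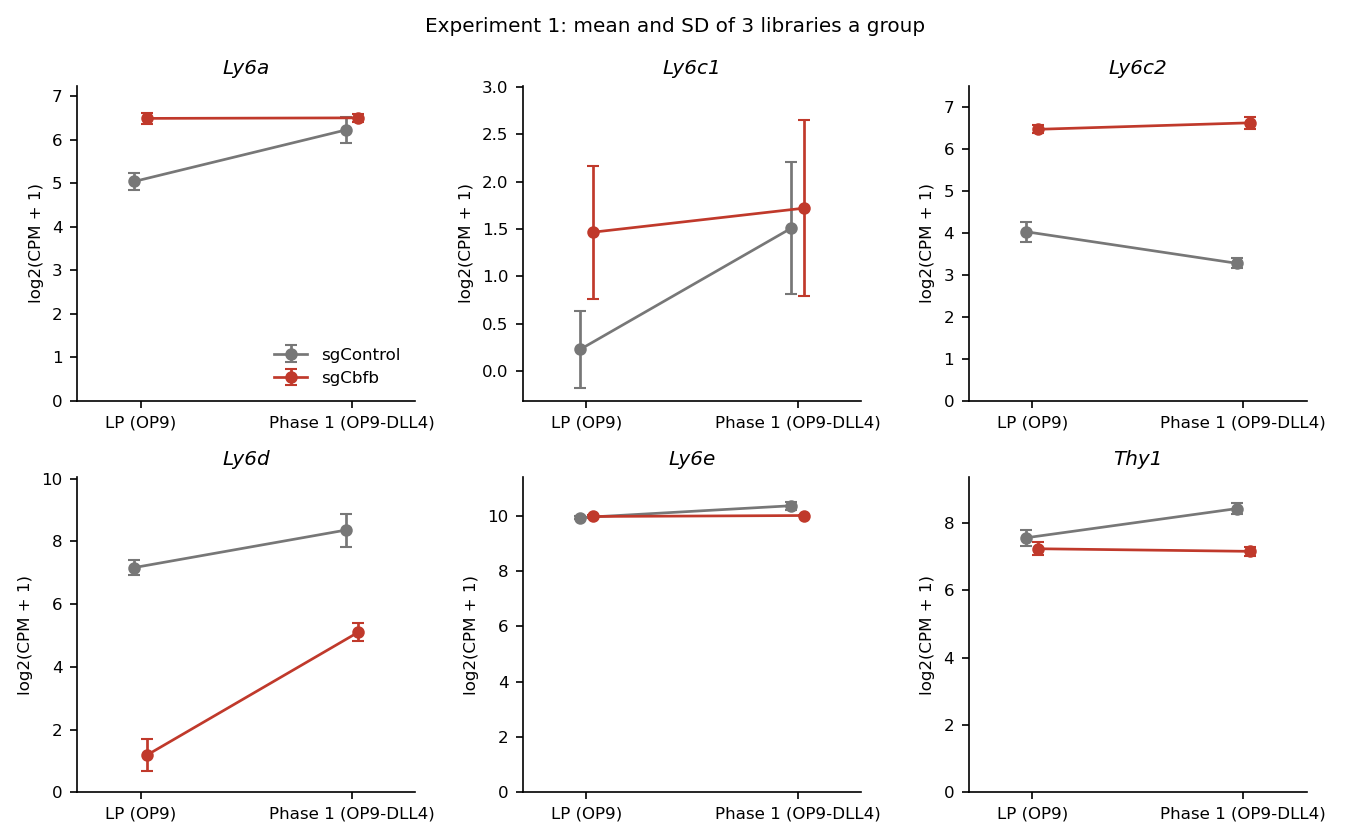
Mean log2(CPM + 1) of each gene in LP and Phase 1 cells of experiment 1 for sgControl (grey) and sgCbfb (red), with SD bars over 3 libraries. The lines for *Ly6d* run apart in LP and closer in Phase 1, those for *Thy1* and *Ly6e* part in Phase 1 and those for *Ly6a* meet there.

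Targeting *Ctcf* in LP cells left *Ly6d*, *Ly6e* and *Thy1* near sgControl and raised the means of *Ly6c2* and *Ly6a*. *Ly6c2* was 7.14-fold higher (2.74, SE 0.24) and *Ly6a* 2.17-fold higher (1.33, SE 0.35). For *Ly6a* the value was 1.92 without sgControl replicate 2, and the thresholds were not met without sgControl replicate 1 (1.06) or 3 (1.01) or sgCTCF replicate 2 (1.26), nor when no filter on low values was used. *Ly6d* differed by -0.44 (SE 0.27), *Ly6e* by -0.15 (SE 0.10) and *Thy1* by 0.00 (SE 0.13). *Ly6c1* had 27 reads against 2, a ratio of 13.1 (interval 3.29 to 113.5), and its fitted difference of 1.22 became 0.58 without sgCTCF replicate 1. The 2 genes that met the thresholds as higher stand beside 1.81% of all genes, and 0.622% met them as lower, with a median of -0.02.

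With sgMed12 only *Ly6d* met the thresholds, and it did so in 8 of 12 fits without 1 library. *Ly6d* was 2.10-fold lower (-1.03, SE 0.27) and *Thy1* higher by 0.59 (SE 0.13), at 269.1 against 179.6 CPM. *Ly6c2* (0.52, SE 0.24), *Ly6a* (0.55, SE 0.35) and *Ly6e* (-0.14, SE 0.10) differed less, and *Ly6c1* never had over 3 reads in a library of either group. The call of *Ly6d* as lower stands beside 0.364% of all genes, and it was lost without sgControl replicate 1 (-0.98) or 2 (-0.85) or sgMed12 replicate 1 (-0.95) or 3 (-0.99), and with no filter or a pseudocount of 0.1 (-1.04). Of all genes 0.668% met the thresholds as higher, and *Ly6a* did so without sgControl replicate 2 (1.14). All 3 comparisons of experiment 2 share the sgControl libraries, so a low or high control moves them together.

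**Figure D3:**
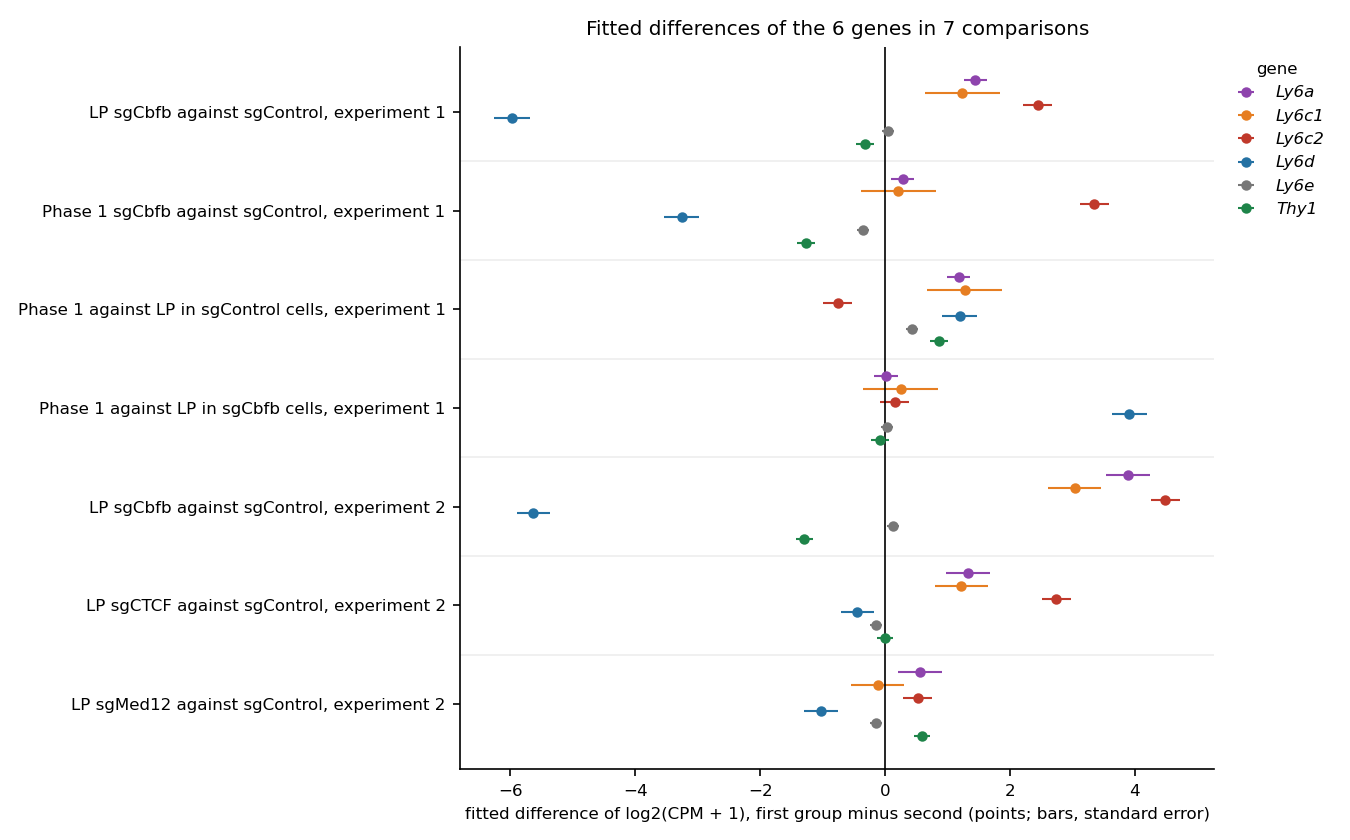
Fitted difference of log2(CPM + 1) of each of the 6 genes (points, with SE bars) in the 7 comparisons, first group minus second. *Ly6d* lies far left and *Ly6c2* far right in each sgCbfb comparison, and *Ly6e* has the narrowest range of the 6.

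The 5 Ly6 genes lie within 349.9 kb of chromosome 15 (GRCm38), in the order *Ly6d* (74762056 to 74763620), *Ly6e* (74955051 to 74959905), *Ly6a* (74994877 to 74998031), *Ly6c1* (75044018 to 75048830) and *Ly6c2* (75108158 to 75111970). *Ly6e* is on the plus strand and the others are on the minus strand. *Thy1* is on chromosome 9 (44043384 to 44048579), on the plus strand. Of these 5 genes the outermost are *Ly6d*, with the largest fitted difference downward with sgCbfb, and *Ly6c2*, with the largest upward on log2(CPM + 1), and *Ly6e*, which varied least, lies between. No other annotated gene overlaps any of the 6.

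Of the genes within 200 kb of a member, 13 passed the filter on low values in each experiment, among 40 annotated on chromosome 15 and 22 on chromosome 9. *Lynx1*, a family member that modulates nicotinic receptors and lies 9.01 kb from *Ly6d*, was higher with sgCTCF, at 3.43 against 12.3 CPM (1.61, SE 0.32, limma adjusted p 0.00149). *Them6*, 37.4 kb from *Ly6d*, was lower with sgCbfb in experiment 2, at 30.3 against 9.81 CPM (-1.56, adjusted p 2.42e-05). It was also lower in Phase 1, at 47.2 against 15.9 CPM (-1.48, adjusted p 0.0198), but not without Phase 1 sgCbfb replicate 2 (-1.16) or Phase 1 sgControl replicate 2 (-1.30) or 3 (-1.25), nor with only those 2 groups in the fit. Near *Thy1*, the deubiquitinase gene *Usp2* at 18.4 kb was lower with sgCbfb in experiment 2, at 26.3 against 9.42 CPM (-1.43, adjusted p 0.000120). It was lower with sgMed12 too, at 12.9 CPM (-0.97, adjusted p 0.0199), but not without sgControl replicate 2 (-0.82) or 3 (-0.99) or sgMed12 replicate 2 (-0.83) or 3 (-1.03), nor with size factors (-0.92) or no filter. The other neighbours that passed the filter, *5830462O15Rik*, *Arc*, *Cbl*, *Gm26737*, *Gm39323*, *Gm39556*, *Gm47345*, *Gm8000*, *Jrk*, *Ly6g*, *Ly6m*, *Mcam* and *Rnf26*, did not meet the thresholds in any comparison in which they were tested. The medians of the neighbours tested were -0.14 and -0.13 for sgCbfb in LP of experiments 1 and 2, -0.39 in Phase 1, 0.68 and 0.04 for Phase 1 against LP in sgControl and sgCbfb cells, 0.23 for sgCTCF and 0.00 for sgMed12.

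*Ly6c1* and *Ly6c2* are close paralogs, which matters for a 3′ tag. The last 500 bases of their transcripts aligned with 487 of 504 columns identical (96.6%), against 434 of 514 (84.4%) for *Ly6a* and *Ly6c1* and 436 of 510 (85.5%) for *Ly6a* and *Ly6c2*. Of the distinct windows of 75 bases in those ends, 304 of 1667 of *Ly6c1* (18.2%) occur in *Ly6c2* or *Ly6a*, and 164 of 711 of *Ly6c2* (23.1%) occur in *Ly6c1*. *Ly6a* shares 1 of 762 windows, and *Ly6d*, *Ly6e* and *Thy1* share none of their 426, 2399 and 1535. How reads that fit both were counted is not stated, so *Ly6c1* and *Ly6c2* were also summed. The sum differed with sgCbfb by 2.45 in LP and 3.12 in Phase 1 of experiment 1 and by 4.51 in experiment 2, and with sgCTCF by 2.77, against 2.44, 3.35, 4.49 and 2.74 for *Ly6c2* alone. The stage in sgControl cells (-0.50 against -0.75) and the interaction (0.67 against 0.91) were smaller for the sum.

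The promoters of these paralogs are shown because the 2 genes lie side by side and were both highest with sgCbfb in experiment 2. They are the 250 bases before the start farthest upstream of the 2 starts that the RefSeq table (GRCm38.p6) gives for each gene, on the minus strand, at chr15:75048838-75049087 for *Ly6c1* and chr15:75111972-75112221 for *Ly6c2*. Of the 6 genes 2 were in the table, and *Ly6a*, *Ly6d*, *Ly6e* and *Thy1* are named only. Capitals mark matches to the RUNX motif, searched as TGTGGT or TGCGGT on both strands (ACCACA or ACCGCA on the other).
Ly6c1: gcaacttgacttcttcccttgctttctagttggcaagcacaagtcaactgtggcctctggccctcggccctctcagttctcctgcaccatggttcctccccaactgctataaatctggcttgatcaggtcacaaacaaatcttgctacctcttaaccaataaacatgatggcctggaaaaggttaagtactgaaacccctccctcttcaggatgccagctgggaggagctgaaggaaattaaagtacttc
Ly6c2: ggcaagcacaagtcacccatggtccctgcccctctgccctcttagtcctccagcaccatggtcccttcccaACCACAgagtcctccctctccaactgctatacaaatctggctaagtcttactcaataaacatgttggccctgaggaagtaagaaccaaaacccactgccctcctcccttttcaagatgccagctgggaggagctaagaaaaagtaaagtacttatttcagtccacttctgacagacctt
The *Ly6c2* promoter holds 1 match, which starts 179 bases before the start, and that of *Ly6c1* holds 0. Of 32851 promoters of the same length 6107 (18.6%) hold a match, so the letters are common. Both aligned with 171 of 290 columns identical (59.0%), where columns with a gap count as not identical. The stretches of 250 bases begin at different points of their shared sequence, which adds gaps. This share is therefore not comparable with that of the transcript ends. Their GC content was 48.4% for *Ly6c1* and 50.0% for *Ly6c2*.

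The genes whose levels across all 24 libraries were most like each of the 6 were found by Pearson's r of log2(CPM + 1), each experiment centred on its LP sgControl mean, among 9263 genes. The points share their groups, so r mostly reads differences between groups, and it is a description with no p. For *Ly6a* these were *Oasl2* (r 0.917, Spearman's rho 0.767), *Ifi27* (0.910, 0.790) and *Dhx58* (0.885, 0.757), all interferon-induced genes. For *Ly6c1* they were *Cmpk2* (0.854, 0.849) and *Ifih1* (0.827, 0.838), also interferon-induced, and *Emb* (0.819, 0.746). For *Ly6c2* they included *Pde4b* (0.952, 0.881) and *Evi5* (0.929, 0.910). *Ly6c1* had at most 3 reads in 17 of the 24 libraries, so its list rests largely on very low counts. The lists of the paralogs were not compared by a test.

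*Ly6d* was most like *Cd7* (r 0.941, rho 0.861), which encodes a lymphoid surface protein, *5830411N06Rik* (0.936, 0.940) and *Slc44a2* (0.932, 0.811). *Cd7* went from 26.5 CPM in LP sgControl to 0 CPM in LP sgCbfb of experiment 1 and from 17.3 to 0.183 CPM in experiment 2. *Thy1* was most like the T-cell kinase gene *Lck* (0.898, 0.795), *Grap2* (0.892, 0.866), an adaptor of T-cell receptor signalling, and *Nkg7* (0.883, 0.826). *Lck* was at 121.0, 34.1, 278.1 and 47.6 CPM in LP sgControl, LP sgCbfb, Phase 1 sgControl and Phase 1 sgCbfb of experiment 1, and so was further below its control in LP sgCbfb than *Thy1* was. *Ly6e* was most like *Ifitm2* (0.875, 0.764), *Slc25a12* (0.858, 0.882) and *Tcf25* (0.847, 0.830), which were highest in Phase 1 sgControl. Among the 6 genes themselves r was highest for *Ly6a* with *Ly6c1* (0.812) and with *Ly6c2* (0.797) and for *Ly6d* with *Thy1* (0.737), and lowest for *Ly6c2* with *Thy1* (-0.829) and with *Ly6d* (-0.769). *Ly6e* lay between -0.176 and 0.324 with the other 5.

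**Figure D4:**
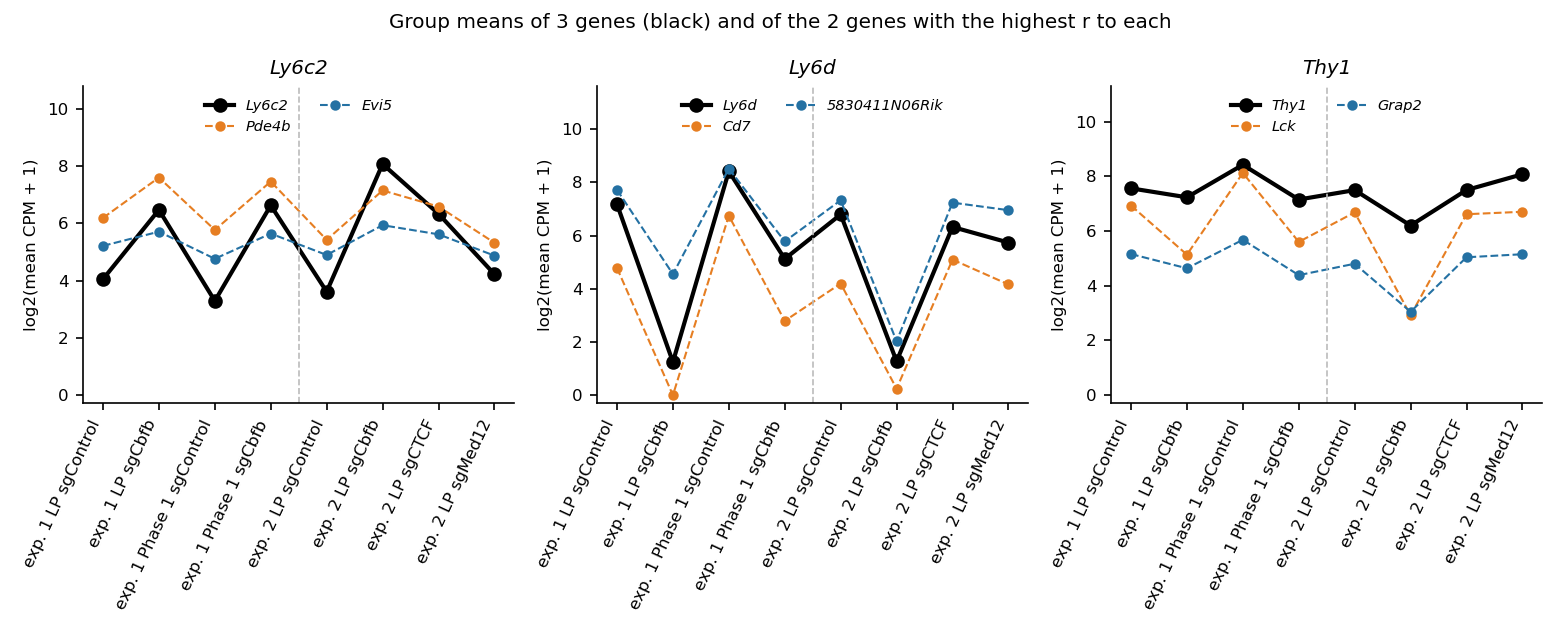
Group means, as log2(mean CPM + 1), of *Ly6c2*, *Ly6d* and *Thy1* (black) and of the 2 genes most like each (coloured), in the 8 groups. The lines mostly rise and dip in the same groups within a panel, with *Cd7* at 0 where *Ly6d* is lowest.

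The other genes of the Ly6/uPAR family were scarcely expressed. Of 36 listed, 24 had no read in experiment 1 and 20 had none in experiment 2, and 4 passed the filter on low values in each (*Ly6m*, *Ly6g5b*, *Lynx1* and *Plaur*, then *Ly6g* in place of *Ly6m*). *Lynx1*, described above, was the 1 gene called among them, in sgCTCF, where the rest also had higher means, *Ly6g* at 0 against 1.85 CPM, *Ly6g5b* at 0.931 against 2.89 CPM and *Plaur*, the urokinase receptor gene, at 2.18 against 7.28 CPM. The median of the 4 was 1.43 in sgCTCF (1.31 with genes at the floor of 3 reads set to their bound), -0.31 in sgCbfb and 0.17 in sgMed12 of experiment 2. In experiment 1 it was -0.06 for sgCbfb in LP, -0.95 (-0.38 with bounds) for sgCbfb in Phase 1, and 0.57 (0.23) and -0.07 for Phase 1 against LP in sgControl and sgCbfb cells.

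Since these proteins need a GPI anchor, the 28 listed genes of anchor synthesis and attachment were read, and all passed the filter. Their medians lay between -0.17 and 0.14 in all 7 comparisons, where those of all genes lay between -0.07 and 0.06, and the median does not show what single genes did. *Pigv*, a mannosyltransferase of the pathway, was called higher in sgCTCF, at 5.36 against 13.4 CPM (1.16, adjusted p 0.00494). It was called higher in sgMed12 too, at 10.95 CPM (0.92, adjusted p 0.0365), but not without any 1 of the 3 sgControl replicates (1.03, 0.96 and 0.78) or sgMed12 replicate 1 (0.99) or 3 (0.88), nor with no filter or only those 2 groups. No other gene of the list was called.

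Other GPI-anchored proteins of leukocytes, a list of 15 with 8 tested in experiment 1 and 7 in experiment 2, moved both ways. With sgCbfb, *Cd24a* was lower in LP of experiment 1, at 53.7 against 21.5 CPM (-1.28, adjusted p 0.00123), and it and the prion protein gene *Prnp* were lower in experiment 2, *Prnp* at 79.4 against 16.0 CPM (-2.38, adjusted p 1.03e-07). *Cd48*, a ligand of lymphocyte receptors, was higher there, at 24.1 against 92.2 CPM (1.90, adjusted p 3.56e-06). In Phase 1 3 were lower with sgCbfb, *Bst1*, *Cd24a* and *Prnp*, *Bst1* at 17.4 against 2.56 CPM (-2.67, adjusted p 0.00706), though not without Phase 1 sgCbfb replicate 3 (-1.92) or with a pseudocount of 0.1 (-3.91). *Cd48* was higher in Phase 1, at 26.8 against 71.1 CPM (2.07, adjusted p 0.0377), a call made in only 3 of 12 fits without 1 library. It was lost without LP sgCbfb replicate 1, 2 or 3, LP sgControl replicate 1 or 2, Phase 1 sgCbfb replicate 1, 2 or 3 (adjusted p up to 0.123) or Phase 1 sgControl replicate 3 (0.86), and with no filter, a pseudocount of 0.1 (2.23) or only those 2 groups.

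Between stages *Prnp* was lower in Phase 1, at 68.6 against 32.6 CPM in sgControl cells (-1.07, adjusted p 0.0141) and 41.3 against 13.8 CPM in sgCbfb cells (-1.55, adjusted p 0.00111). The first was lost without LP sgControl replicate 1 (-1.08) or 3 (-0.95) or Phase 1 sgControl replicate 1 (-0.97) or 2 (-0.96) and with size factors. *Bst1* and *Cd24a* were higher in Phase 1 sgControl cells, *Bst1* at 0.206 against 17.4 CPM (3.95, adjusted p 0.000131). So *Prnp* and *Cd24a*, like *Thy1*, were lower with sgCbfb in Phase 1 and in experiment 2. With sgMed12, *Bst2*, which is interferon-induced, was called higher, at 100.5 against 286.9 CPM (1.34, adjusted p 0.0130), but not without sgControl replicate 3 (1.27) or sgMed12 replicate 1 (0.99) or 3 (1.17) or with no filter. The list's medians for sgCbfb were -0.43 in LP of experiment 1, -1.04 in Phase 1 and -0.74 in experiment 2 (-0.68 with bounds), against 0.00, 0.06 and -0.01 over all genes, and 0.32, 0.34 (0.07), 0.06 and -0.18 for the stage in sgControl and sgCbfb cells, sgCTCF and sgMed12.

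*Ly6a* and the Ly-6C genes are known to be induced by interferon, so 20 interferon-stimulated genes were read beside them. In sgCbfb of experiment 2, 14 of 18 tested were called higher, with a median of 3.27 (3.38 with bounds) against -0.01 over all genes. *Usp18* had no read in sgControl and 34.5 CPM in sgCbfb (4.90, adjusted p 3.04e-09), at least 43.0-fold higher against a floor of 3 reads in each library. In experiment 1, *Rsad2* and *Rtp4* were called higher of 17 tested in LP sgCbfb, *Rsad2* at 1.65 against 18.3 CPM (2.81, adjusted p 0.00283), and the median was 0.69. In Phase 1 sgCbfb the median was -0.20. The rise of this list thus belonged mostly to experiment 2, although the difference between the experiments was not tested.

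In the other comparisons few of the list were called. *Cmpk2* was higher in Phase 1 than in LP sgControl, at 3.92 against 14.7 CPM (1.73, adjusted p 0.0220), but not without LP sgControl replicate 1 (1.49) or 3 (1.65) or Phase 1 sgControl replicate 1 (1.62) or 3 (1.65) or with only those 2 groups. *Rsad2* was lower in Phase 1 than in LP sgCbfb, at 18.3 against 2.84 CPM (-2.34, adjusted p 0.0169), but not without LP sgCbfb replicate 1 (-2.35) or 3 (-2.03) or Phase 1 sgCbfb replicate 1 (-2.02) or 2 (-2.33), nor with no filter or a pseudocount of 0.1 (-2.73). With sgCTCF 2 genes were called higher, led by *Ifih1* at 9.49 against 30.4 CPM (1.57, adjusted p 2.21e-05), and *Bst2* and *Rtp4* were called higher in sgMed12. The medians were 0.95 and -0.26 for the stage in sgControl and sgCbfb cells, 0.41 (0.26 with bounds) for sgCTCF and 0.43 for sgMed12.

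The summed level of the 20 genes differed between replicates of 1 group. In experiment 2 it was 175.9, 180.4 and 145.9 CPM in sgControl, 1443, 774.4 and 505.1 CPM in sgCbfb, 272.4, 257.3 and 233.2 CPM in sgCTCF and 493.6, 221.4 and 411.0 CPM in sgMed12. *Bst2* was its most abundant gene in each of these libraries, and without it the sums were 72.5, 73.5 and 54.8 CPM in sgControl, 1118, 628.8 and 407.1 CPM in sgCbfb, 146.2, 146.2 and 113.2 CPM in sgCTCF and 80.2, 96.8 and 88.3 CPM in sgMed12. With or without the most abundant gene, the order of replicates by sum was that by *Ly6a* in sgControl and sgCbfb of experiment 2 and in Phase 1 sgCbfb, its reverse in Phase 1 sgControl and neither in LP sgCbfb of experiment 1 and sgCTCF. In sgMed12 it was the reverse with that gene and the same without, and in LP sgControl of experiment 1 it was the same only without. In experiment 1 the sums without the most abundant gene were 107.4, 114.5 and 86.1 CPM in LP sgControl, 191.8, 140.5 and 238.3 CPM in LP sgCbfb, 217.4, 226.4 and 131.3 CPM in Phase 1 sgControl and 127.1, 148.3 and 156.8 CPM in Phase 1 sgCbfb. The gene taken out was *Bst2* in every library but Phase 1 sgCbfb replicate 2, where another gene was more abundant and *Bst2* stayed in the sum. *Ly6c2* was higher in Phase 1 sgCbfb than in Phase 1 sgControl, and the sums of these groups overlapped. The part of interferon-stimulated genes in the *Ly6a* and *Ly6c2* differences was not tested.

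**Figure D5:**
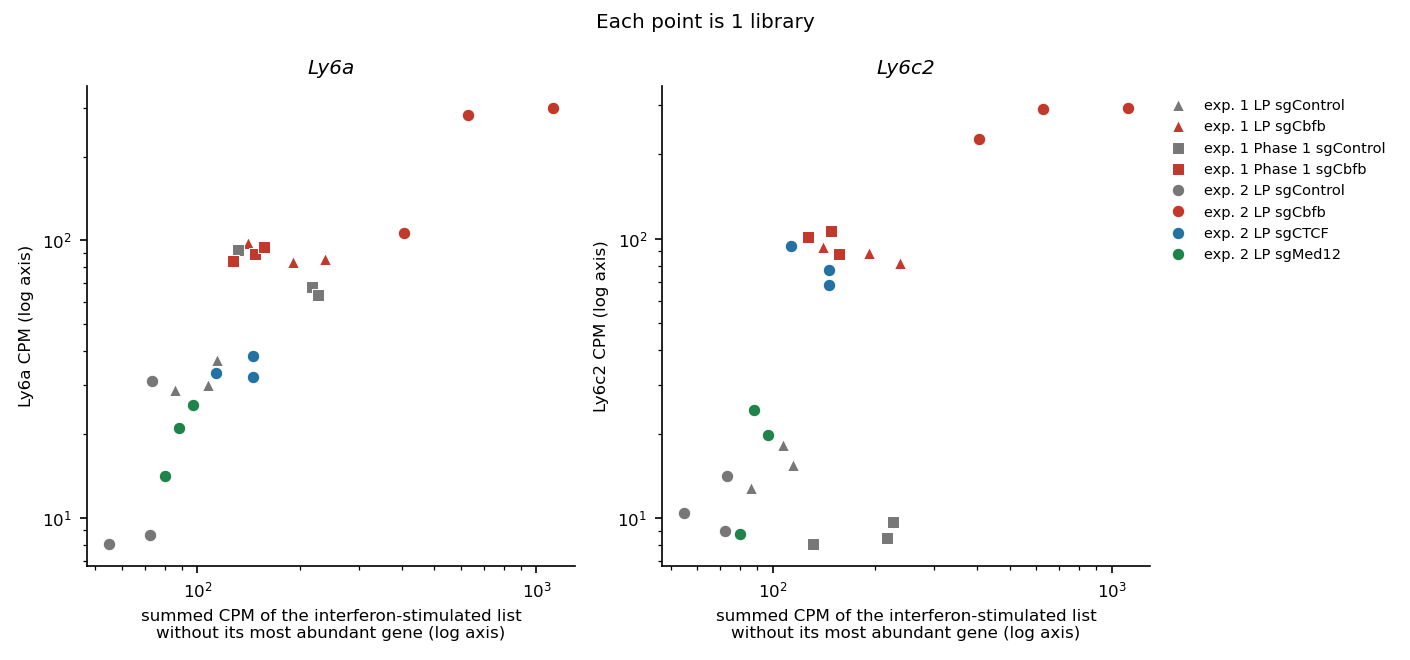
CPM of *Ly6a* (left) and *Ly6c2* (right) against the summed CPM of the interferon-stimulated list without its most abundant gene (*Bst2* except in Phase 1 sgCbfb replicate 2), both on log axes, with each point 1 library coloured by group. The sgCbfb libraries of experiment 2 lie at the upper right in both panels, and *Ly6c2* is also high in Phase 1 sgCbfb libraries, whose sums overlap those of Phase 1 sgControl.

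*Thy1* was read beside 18 early T-lineage genes, all tested in experiment 1 and 15 in experiment 2. Between LP and Phase 1 in sgControl cells 12 were called higher (median 2.01, or 1.90 with bounds), with *Il2ra* the largest, at 2.61 against 371.3 CPM (6.86, adjusted p 1.71e-12). In sgCbfb cells 4 were called higher (median 0.46), with *Dtx1*, a Notch target, the largest, at 0.711 against 42.8 CPM (4.73, adjusted p 1.36e-06). With sgCbfb in Phase 1, 9 were called lower (median -1.73, or -1.68 with bounds), with *Cd7* the largest, at 106.3 against 5.93 CPM (-4.15, adjusted p 2.36e-06). *Thy1*, with Phase 1 differences of 0.87 in sgControl and -1.27 with sgCbfb, thus had the signs of most of this list.

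In LP cells the same list was mixed. With sgCbfb in experiment 1, 3 were called lower and 1 higher (median 0.14, or 0.11 with bounds), *Cd7* at 26.5 against 0 CPM, at least 13.3-fold lower (-4.77, adjusted p 6.44e-07), and *Il2ra* at 2.61 against 20.2 CPM (2.71, adjusted p 1.05e-05). In experiment 2, 4 were lower and 2 higher (median -0.24), again led by *Cd7* (-3.93, adjusted p 1.75e-10) and *Il2ra*, at 0.845 against 22.5 CPM (3.66, adjusted p 1.80e-07). With sgCTCF 3 were higher (median 0.60), led by *Tcf7* at 2.54 against 18.02 CPM (2.43, adjusted p 4.21e-05), and with sgMed12 *Hes1* was higher at 2.35 against 15.7 CPM (2.27, adjusted p 0.000206; median 0.14). None of these lists' changes was tied to *Thy1* by a test.

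*Ly6d* was read beside 20 genes of the B lineage and lymphoid priming, of which 15 were tested. Few of these were called lower with sgCbfb, and *Ebf1* tags had means of 333.7 and 180.5 CPM in LP sgControl and LP sgCbfb of experiment 1. *Dntt*, which encodes terminal transferase, was higher with sgCbfb, at 39.4 against 251.0 CPM in LP of experiment 1 (2.63, adjusted p 1.96e-06), at 5.11 against 55.5 CPM in Phase 1 (3.27, adjusted p 4.42e-08) and at 30.6 against 277.7 CPM in experiment 2 (3.16, adjusted p 5.06e-13). The counts lower and higher were 0 and 3, 2 and 3, and 2 and 4, with medians of -0.10, 0.15 and -0.33. The largest falls among called genes were of *Spib* in Phase 1, at 16.0 against 1.94 CPM (-2.96, adjusted p 0.00623; not called without Phase 1 sgCbfb replicate 3, at -2.40, or with a pseudocount of 0.1, at -4.45), and of *Bach2* in experiment 2, at 34.1 against 14.98 CPM (-1.12, adjusted p 0.000247; -0.92 and not called without sgControl replicate 2).

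Between LP and Phase 1, 4 of that list were lower in sgControl cells (median -0.36), led by *Flt3* at 272.7 against 36.1 CPM (-3.06, adjusted p 1.62e-07). In sgCbfb cells 4 were lower too (median -0.51), led by *Dntt* at 251.0 against 55.5 CPM (-2.14, adjusted p 4.17e-05). *Ly6d* was higher in Phase 1 in both, so it moved the other way. With sgCTCF 4 were higher (median 0.22), led by the adaptor gene *Blnk* at 0.633 against 13.7 CPM (3.14, adjusted p 1.26e-06), and with sgMed12 *Dntt* was lower, at 10.1 CPM (-1.49, adjusted p 2.98e-05; median -0.36), as was *Ly6d*.

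Markers of other cell types were read because *Ly6c2* and *Ly6a* are also expressed by them. Of 20 myeloid genes, 13 were tested in experiment 1 and 12 in experiment 2, and *Mrc1*, a mannose receptor gene of macrophages, was higher with sgCbfb throughout, at 4.86 against 221.1 CPM in LP of experiment 1 (5.37, adjusted p 1.09e-09), at 1.62 against 209.5 CPM in Phase 1 (6.41, adjusted p 1.65e-10) and at 6.23 against 471.6 CPM in experiment 2 (6.08, adjusted p 8.58e-15). The counts lower and higher were 0 and 3, 1 and 4, and 0 and 4 in these comparisons, with medians of 0.41 (0.22 with bounds), 0.50 and 1.02 (0.98). The gene lower in Phase 1 was *Ccr2*, at 65.03 against 26.8 CPM (-1.25, adjusted p 0.0118; -1.19 and not called without Phase 1 sgCbfb replicate 1). The granulocyte and monocyte genes *Ctsg*, *Ms4a3* and *Cd14* had no read in either experiment, and *S100a8* and *S100a9* had none in experiment 2.

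The summed level of the myeloid list was highest in the sgCbfb groups, where *Ly6c2* was highest too, though LP sgCbfb lay above Phase 1 sgCbfb. Its group means were 170.3, 664.5, 148.7 and 514.7 CPM in LP sgControl, LP sgCbfb, Phase 1 sgControl and Phase 1 sgCbfb, with *Adgre1*, *Mrc1* or *F13a1*, *Ccr2* and *Mrc1* the most abundant gene. In experiment 2 they were 158.8 CPM in sgControl, 881.2 CPM in sgCbfb, 280.3 CPM in sgCTCF and 187.0 CPM in sgMed12, with *Adgre1*, *Mrc1*, *Ccr2* and *Fcgr3* or *Adgre1* the most abundant gene. Between stages, 3 myeloid genes were lower and 1 higher in sgControl cells (median -0.39), led by *Adgre1* at 60.3 against 17.3 CPM (-1.78, adjusted p 3.62e-06) and *Ccr2* at 25.8 against 65.03 CPM (1.33, adjusted p 0.00698). In sgCbfb cells 2 were lower (median 0.07), led by *Mpo* at 16.8 against 1.66 CPM (-2.83, adjusted p 0.00416). With sgCTCF 2 were higher (median -0.49, or -0.33 with bounds), led by *Ccr2* at 23.6 against 123.2 CPM (2.46, adjusted p 3.13e-06), and the median with sgMed12 was 0.34 (0.25). The part of myeloid genes in the *Ly6c2* difference was not tested.

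Plasmacytoid dendritic cells, which also express *Ly6c2* and *Ly6d*, were read through 14 genes, 11 of them tested. *Ccr9*, a gut-homing chemokine receptor gene, was lower with sgCbfb in LP of experiment 1, at 988.5 against 234.6 CPM (-2.07, adjusted p 2.29e-09), and of experiment 2, at 534.4 against 26.9 CPM (-4.25, adjusted p 3.82e-16). The counts lower and higher were 3 and 0 and then 2 and 1, with medians of -1.11 and -0.34, and *Irf7* was the higher gene, at 3.44 against 63.3 CPM (3.90, adjusted p 1.73e-08). In Phase 1 they were 2 and 1 (median -0.50), with *Spib* as given, *Ccr9* also lower, at 130.8 against 58.0 CPM, and *Runx2* higher. *Ccr9* was also lower in Phase 1 than in LP, at 130.8 CPM in sgControl (-2.92, adjusted p 2.54e-12; 3 genes lower, median -0.81) and 58.0 CPM in sgCbfb cells (-2.003, adjusted p 3.80e-09). There *Irf8* was higher, at 25.7 against 64.6 CPM (1.31, adjusted p 0.000998; median 0.09, or -0.04 with bounds). *Spib* was higher with sgCTCF, at 8.87 against 26.6 CPM (1.497, adjusted p 0.00262; not called with a pseudocount of 0.1, at 1.59; median 0.18), and *Bst2*, as given, with sgMed12 (median -0.45). *Ly6d* thus shared its lower level with sgCbfb, in LP and in Phase 1, with *Ccr9* but not its rise from LP to Phase 1.

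Of 20 stromal genes that would mark OP9 cells, 2 were tested in experiment 1 and 7 in experiment 2. Their medians were -1.08 for sgCbfb in LP and 0.38 (-0.22 with bounds) in Phase 1, 0.10 and 1.56 (1.10) for the stage in sgControl and sgCbfb cells, and -0.12 (-0.09), 1.12 and 0.66 for sgCbfb, sgCTCF and sgMed12 of experiment 2, and no gene was called in any of them by limma. The fibroblast genes *Col3a1*, *Dcn* and *Postn* had no read in either experiment. The summed level was 2.85 to 25.2 CPM in experiment 1. In experiment 2 it was 44.3, 9.15 and 7.55 CPM in sgControl, 22.4, 12.1 and 3.02 CPM in sgCbfb, 43.2, 32.3 and 22.9 CPM in sgCTCF and 61.3, 14.5 and 33.2 CPM in sgMed12, with *Pdgfrb*, *Col1a2*, *Sparc* or *Fn1* most abundant. The libraries came from cells sorted as hNGFR+CD45+. The part of stromal RNA in the level of any of the 6 genes was not tested.

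Of 11 erythroid and megakaryocyte genes, 3 were tested in experiment 1 and 2 in experiment 2. The globin gene *Hbb-bt* was the 1 called, higher with sgCbfb in LP at 131.6 against 566.6 CPM (2.11, adjusted p 6.26e-11) and in experiment 2 at 134.6 against 863.0 CPM (2.67, adjusted p 5.06e-13). It was higher in Phase 1 than in LP, at 1566 CPM in sgControl (3.58, adjusted p 4.03e-15) and 2526 CPM in sgCbfb cells (2.15, adjusted p 3.14e-11). *Ly6a* did not share the last of these rises (0.01). *Car1* and *Pf4* had no read in either experiment. The medians were 0.68 (0.18 with bounds), -0.05, 0.81 (0.21), 0.08, 1.57 (1.35), -0.27 (-0.45) and 0.36 (0.34) for sgCbfb in LP, sgCbfb in Phase 1, the stage in sgControl and in sgCbfb cells, and sgCbfb, sgCTCF and sgMed12 of experiment 2.

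Of the RUNX genes, *Runx1* was called with sgCbfb in all 3 comparisons. It was higher in LP of experiment 1, at 386.0 against 779.5 CPM (1.02, adjusted p 1.33e-05), in Phase 1, at 278.2 against 603.1 CPM (1.11, adjusted p 2.07e-06), and in experiment 2, at 257.0 against 597.9 CPM (1.22, adjusted p 1.16e-09). The first did not meet the fold threshold without LP sgCbfb replicate 1 (0.93) or LP sgControl replicate 2 (0.96) or 3 (0.96). *Runx2* was higher with sgCbfb in Phase 1, at 24.1 against 74.5 CPM (1.62, adjusted p 0.000127), and lower in Phase 1 than in LP sgControl, at 52.7 against 24.1 CPM (-1.11, adjusted p 0.00554), though not without LP sgControl replicate 1 (-0.91) or Phase 1 sgControl replicate 3 (-0.94) or with only those 2 groups. *Runx3* was at 286.4, 296.0, 351.9 and 422.5 CPM in LP sgControl, LP sgCbfb, Phase 1 sgControl and Phase 1 sgCbfb and was not called. With the 3 targeted genes, the list's medians were 0.07, 0.23, -0.44 and 0.16 in experiment 1 (sgCbfb in LP, in Phase 1, the stage in sgControl and sgCbfb cells) and 0.17, -0.14 and -0.19 in experiment 2 (sgCbfb, sgCTCF, sgMed12).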

How the data were processed

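Fetal liver Cas9-LP QuantSeq libraries were 24, in 8 groups of 3. The deposited values are CPM (the authors' table names say TPM), from reads cleaned by fastp and aligned by STAR to mouse build mm10, with no division by gene length. The counter, annotation and strand setting are not stated. Whole reads were recovered from the values within 0.02 reads for 99.98% to 100% of values per library. 1 line without a gene per table and 1 mean column of the authors were not used, and every per-sample column was mapped to a sample.

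Genes with at least 1 CPM in 3 libraries of an experiment were fitted with limma 3.58.1 (trend) in R 4.3.3 on log2(CPM + 1), with Benjamini-Hochberg adjusted p, and the procedure was tested on simulated data. At most 3 reads in each library was the floor. Tables used Python 3.11.15, pandas 2.3.3, numpy 2.4.6, SciPy 1.17.1, Biopython 1.88 and matplotlib 3.10.9. Counting intervals are exact conditional binomial (Clopper-Pearson) on pooled reads. The 6 genes and the lists were chosen with earlier results of these data known. Named beside them were the targeted and RUNX genes, tested genes of the Ly6/uPAR list, the called gene with the largest rise and fall of every other list in each comparison, all genes within 200 kb that passed the filter and genes among the 3 most alike by r. *Cd24a*, *Rtp4*, genes at 0, the markers of the labels and the most abundant gene of a list were named after their values were seen. *Bst2* is in 3 of the lists, and *Cd14*, *Cd59a*, *Irf7*, *Spib* and *Runx2* are in 2 each.

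Alternatives were edgeR 4.0.16 (quasi-likelihood, TMM), median-of-ratios size factors, pseudocounts of 0.1 and 5, no filter, only the 2 groups compared, each library left out, a replicate block and *Ly6c1* and *Ly6c2* summed.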

Additional observations from a re-analysis of the deposited data

Results flagged for a closer look

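The sgCbfb difference itself differed between Phase 1 and LP of experiment 1 (Phase 1 minus LP on the log2 scale, limma interaction, n = 3 libraries a group) for the genes below, which the naming rule gives beside the Ly6 genes and *Thy1*. Means are given in CPM in the order LP sgControl, LP sgCbfb, Phase 1 sgControl, Phase 1 sgCbfb. The interaction was positive for *Adgre1* (1.77, adjusted p 0.00183; means 60.3, 100.3, 17.3 and 99.3), *Irf8* (1.67, 0.00607; 80.5, 25.7, 62.1 and 64.6) and *Runx2* (1.73, 0.00870; 52.7, 47.7, 24.1 and 74.5). It was also positive for *Ccr9* (0.91, 0.0168; 988.5, 234.6, 130.8 and 58.0), though not called without LP sgCbfb replicate 2 (0.85) or 3 (0.91), LP sgControl replicate 1 (0.89) or 2 (0.91) or Phase 1 sgCbfb replicate 2 (0.80). For *Flt3* (1.69, 0.0407; 272.7, 260.4, 36.1 and 98.5) the call was lost without LP sgCbfb replicate 2 (1.73) or 3 (1.48), any LP sgControl replicate (1.66, 1.67 and 1.73) or any Phase 1 sgCbfb replicate (1.64, 1.61 and 1.81), and with no filter or a pseudocount of 0.1 (1.72).

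The interaction was negative for the T-lineage genes *Il2ra* (-4.38, adjusted p 7.72e-06; means 2.61, 20.2, 371.3 and 115.5) and *Tcf7* (-3.58, 0.00702; 4.52, 4.83, 147.5 and 12.7). It was negative too for *Hbb-bt* (-1.42, 2.15e-05; 131.6, 566.6, 1566 and 2526) and for the interferon-stimulated gene *Rsad2* (-3.87, 0.00798; 1.65, 18.3, 6.84 and 2.84). No cause was tested.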

How the results depend on the processing

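Of the counts of called genes, 167 of 180 values with 1 library left out and 98 of 104 under the other alternatives stayed within 1.5 times the reported count. Counts that did not were as follows. Genes lower with sgCbfb in LP of experiment 1 were 79, 119 with only the 2 groups compared and 59 to 119 with 1 library left out, and genes higher were 145 and 88 to 182. Genes lower in Phase 1 than in LP were 231 in sgControl cells, 148 to 361 with 1 library left out. In sgCbfb cells they were 60, 34 to 98, and 111 with only the 2 groups compared. With sgMed12, genes lower were 48, 31 to 115 with 1 library left out (115 without sgMed12 replicate 2) and 30 both without the filter and with only the 2 groups compared. Genes higher were 88, 22 (without sgMed12 replicate 3) to 243 (without sgMed12 replicate 2), 24 without the filter and 27 with only the 2 groups. The cause was not tested. By edgeR the calls lower and higher were 109 and 160, 233 and 265, 232 and 256 and 82 and 111 in experiment 1 (sgCbfb in LP, in Phase 1, the stage in sgControl and sgCbfb cells) and 218 and 354, 83 and 245 and 45 and 116 in experiment 2 (sgCbfb, sgCTCF, sgMed12), with 182 interactions. With replicate number as a block they were 89 and 146, 208 and 272, 250 and 222, 65 and 100, 218 and 349, 83 and 241 and 48 and 100, with 181 interactions. Replicate numbers paired samples weakly if at all, with median r of 0.04 and 0.07 between libraries of the same number in experiments 1 and 2 and -0.02 and -0.03 between others. For the 6 genes, 575 of 576 differences with 1 library left out and 301 of 342 under other alternatives moved by less than the residual SD of the fit, and 0 changed the sign of a called difference. Those that moved were of *Ly6c1*, *Ly6c2* and *Ly6d*. Many of the values counted could not move, so these counts do not measure stability. Leaving out a library outside the 2 groups compared does not change their difference. Nor does dropping the filter, fitting only the 2 groups or adding the replicate block. *Ly6a* also depended on sgControl replicate 2 of experiment 2, though within that SD. Without it the difference went from 3.89 to 4.48 (sgCbfb), 1.33 to 1.92 (sgCTCF) and 0.55 to 1.14 (sgMed12). The *Ly6d* difference with sgCbfb in LP of experiment 1 was -6.76 with a pseudocount of 0.1, -4.54 with 5 and -6.68 by edgeR. Few reads limit *Ly6c1* in most libraries and *Ly6d* in LP sgCbfb.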
